A study of Homo sapiens with 4 samples.

Results

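The mTOR kinase complexes, the TSC complex that restrains them and the translation effectors they phosphorylate were followed in human cells with and without THUMPD1. The set is defined by gene symbol as MTOR, RPTOR, RICTOR, MLST8, RPS6KB1, RPS6KB2, EIF4EBP1, EIF4EBP2, TSC1 and TSC2, which are 10 of the 18917 genes in the count table. All 10 were found and all 10 passed the filter on low counts, which kept 13128 genes with 1 CPM or more (counts per 1000000, on scaled library sizes) in no fewer than 2 libraries.

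THUMPD1 is an adaptor protein needed for acetylation of cytidine in leucine and serine tRNAs. The study asked how its loss affects translation and stress signaling. RNA-seq was made from 4 libraries of human embryonic kidney cells, 2 wild type (WT) and 2 THUMPD1 knockout (KO), which the labels call HEK293 and the paper HEK-293T. Cells of both genotypes were grown alike, in DMEM with 10% serum and 2 mM glutamine, and the labels give no starvation, drug or other treatment. KO cells were made with CRISPR-Cas9 and grown out after sorting of single cells, so that a KO line goes back to a single cell, and the labels do not say how many clones or separate cultures lie behind the libraries.

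Total counts ran from 7875722 to 11362363 per library, and 3 counts correspond to 0.259 to 0.391 CPM. THUMPD1 itself was counted 356 and 468 times in WT and 71 and 58 times in KO, a log2 fold change of -2.93. Of the 13128 genes tested with edgeR's quasi-likelihood method, 1154 were called higher and 1594 lower in KO at a Benjamini-Hochberg adjusted p under 0.05. With library size as the only scaling, the split was 2081 higher and 1158 lower. Summed over 5 markers of the line (KRT8, KRT18, VIM, PAX2, NEFM), the level was 572 to 579 CPM in WT and 414 to 446 CPM in KO, with the neurofilament gene NEFM at 185 and 177 CPM in WT and at 26.3 and 23.0 CPM in KO. Summed over 5 markers of other cells (PTPRC, PECAM1, ALB, COL1A2, UMOD), it was 0.0910 to 0.652 CPM in WT and 0.259 to 0.845 CPM in KO, with UMOD at 0 in all 4 libraries. The p-values measure the spread between these libraries, which may be technical. An exact two-sided permutation test of 2 against 2 libraries cannot go below p = 0.333 and was not used. In bulk RNA, a change in the number of cells that express a gene and a change in RNA per cell cannot be told apart.

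mTOR is a serine/threonine kinase that couples growth factors, amino acids and energy to protein synthesis. It works in a complex with RPTOR, mTORC1, and in a complex with RICTOR, mTORC2, and MLST8 is a subunit of both. mTORC1 phosphorylates the ribosomal S6 kinases and the eIF4E-binding proteins, which in the unphosphorylated form hold the cap-binding protein eIF4E and so limit cap-dependent initiation. TSC1 and TSC2 act together as a GTPase-activating complex for RHEB, the GTPase that switches mTORC1 on. These proteins are controlled chiefly by phosphorylation and location, which mRNA counts do not measure. By immunoblot, the paper reported no altered mTOR activation in its HEK-293T KO cells.

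The members differ widely in leucine codon usage, which bears on leucine tRNAs, and the study examined the U/A-rich codons TTA, CTA, TTG and CTT. Stretches of RICTOR and TSC2 are shown because they stand far apart in this usage at a like number of leucine codons. In the canonical transcripts, these 4 codons made up 175 of 224 leucine codons of RICTOR and 40 of 222 of TSC2. Each line gives 10 consecutive codons within an exon, 5′ to 3′ on the coding strand, with these 4 codons in capitals. It is the first such stretch to reach the highest number of them, and later stretches may equal it. The RICTOR stretch covers codons 88 to 97 (chr5:39002636-39002665, minus strand, GRCh38) and holds 4. The TSC2 stretch covers codons 10 to 19 (chr16:2048643-2048672, plus strand, GRCh38) and holds 2.
RICTOR: TTGcggTTAgctTTATTAaatgaagcaaaa
TSC2: ggcTTGaaggagaagtttaagattctgTTG

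Among leucine codons, the share of these 4 was 78.1% in RICTOR, above 95.2% of the 12956 tested genes with a coding sequence. The share was 62.5% in EIF4EBP2, 56.5% in RPS6KB1, 51.8% in TSC1, 37.3% in MTOR, 29.5% in RPTOR, 24.5% in RPS6KB2 and 10.0% in MLST8, and EIF4EBP1 had 0 among its 6 leucine codons. The median of all 12956 genes was 40.8%. The scaffolds of the complexes stood apart, with RICTOR far above the median and RPTOR below it, and the S6 kinase genes likewise lay on either side. For the small genes the share rests on few codons, 8 in EIF4EBP2 and 20 in MLST8.

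The KO libraries differed little from WT in most of these genes and more in MLST8. MLST8 lies on chromosome 16, where 50.6% of tested genes were called lower, and the cause was not tested. The test called 3 of the 10 members, where it called 20.9% of all genes: EIF4EBP2 was higher (8.79% of all genes were) and MLST8 and RPS6KB2 were lower (12.1% of all genes were). In 7 of the 10 members the KO libraries did not overlap the WT libraries, against 60.4% of all genes. KO was above WT in 3 (MTOR, RICTOR, EIF4EBP2), against 30.4% of all genes, and below WT in 4 (RPTOR, MLST8, RPS6KB2, TSC2), against 30.0%. The median log2 fold change of the 10 was 0.00, beside 0.01 over all genes tested. With library size as the only scaling, 5 members were called, 4 higher and 1 lower. The same scaling called 3239 of all 13128 genes, 2081 higher and 1158 lower, and their median log2 fold change was 0.09. On that scale 7 of the 10 again did not overlap (62.3% of all genes). KO was above WT in 5 (5355 of the 13128 genes) and below it in 2, MLST8 and RPS6KB2 (2830 of the 13128 genes). RPTOR and TSC2 overlapped, and TSC1 and EIF4EBP1 were above WT.

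**Figure D1:**
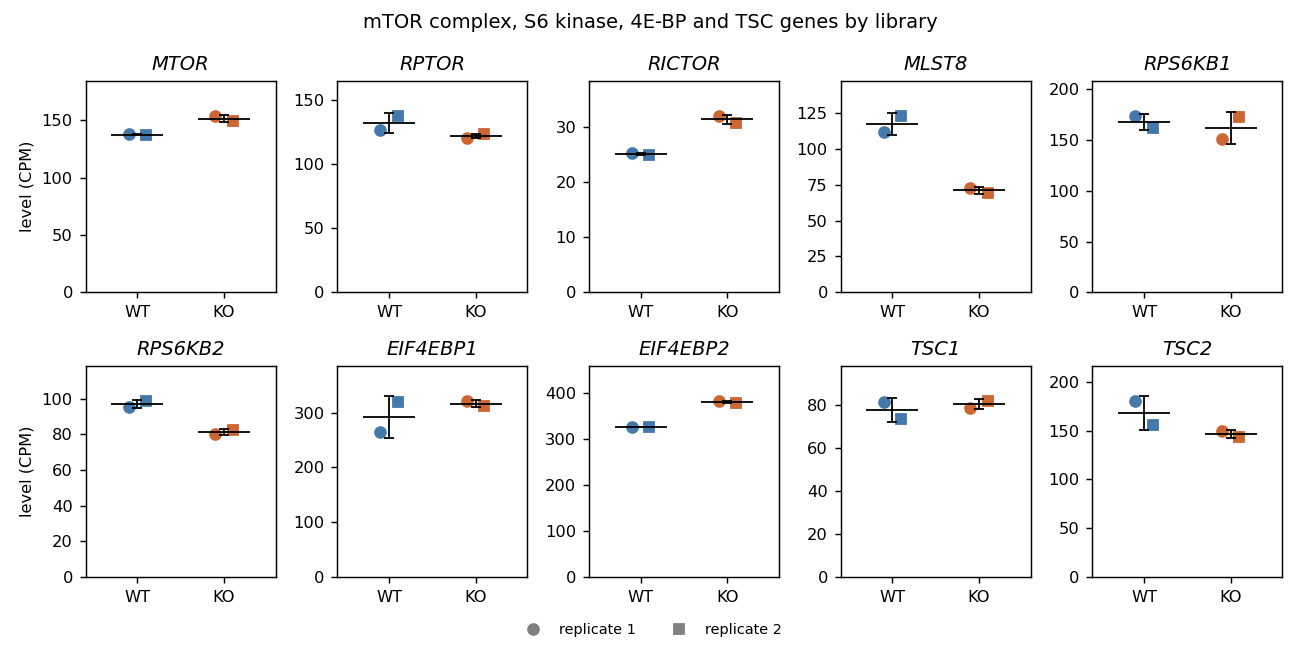
Level of each gene in CPM (vertical axes from 0) in WT (blue) and KO (orange) libraries. Circles are replicate 1 and squares replicate 2, and horizontal lines with bars give the mean and SD of 2 libraries. MLST8 falls from 112 and 123 CPM to 72.9 and 69.1 CPM, while RPS6KB1, EIF4EBP1 and TSC1 overlap between genotypes.

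Of the genes shared by both kinase complexes, the kinase itself was nearly level and MLST8, which binds the kinase domain, was lower. MTOR (chr1:11106535-11262556) measured 137.6 and 137.3 CPM in WT and 153.5 and 149.0 CPM in KO. Both KO libraries were above both WT libraries, but the log2 fold change of 0.14 (SE 0.07, 95% interval -0.01 to 0.28) missed the threshold (adjusted p = 0.166). MTOR was called when library size alone was the scaling (log2 fold change 0.22, adjusted p = 0.0201).

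MLST8 (chr16:2204248-2209453) measured 111.9 and 122.8 CPM in WT and 72.9 and 69.1 CPM in KO. The genotypes were well apart, at 117 ± 7.67 CPM in WT and 71.0 ± 2.68 CPM in KO (SD, n = 2 each). The KO level was 0.604 of the WT level, a log2 fold change of -0.73 (SE 0.08, 95% interval -0.90 to -0.56, adjusted p = 4.84e-07). MLST8 was called lower under all 8 other whole-table settings, at -0.75 to -0.64, and without each library in turn, at -0.79 to -0.66.

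The scaffolds that set the identity of each complex lay on opposite sides of WT with the main scaling, and neither passed the test. RPTOR, the mTORC1 scaffold that recruits substrates (chr17:80544819-80966371), measured 126.5 and 137.1 CPM in WT and 120.4 and 122.9 CPM in KO. The KO libraries were just below the WT libraries, with a log2 fold change of -0.12 (SE 0.07, 95% interval -0.27 to 0.03, adjusted p = 0.274). With library size alone RPTOR overlapped between genotypes, at 123.2 and 132.6 CPM in WT and 124.9 and 125.3 CPM in KO, and its log2 fold change was -0.034. Without WT replicate 2 it was -0.056. RICTOR, the mTORC2 scaffold (chr5:38937920-39074402), measured 25.3 and 25.0 CPM in WT and 32.0 and 30.9 CPM in KO. Here the KO libraries were above the WT libraries, and the log2 fold change was 0.32 (SE 0.13, 95% interval 0.05 to 0.60, adjusted p = 0.0873), the largest among members that were not called. RICTOR was the lowest member in counts, at 194 to 371 per library, and it was called with library size alone (0.41, adjusted p = 0.0262).

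The S6 kinases are parallel mTORC1 substrates, and their genes differed in outcome. RPS6KB1, which encodes S6K1 (chr17:59893046-59950574), measured 173.6 and 162.2 CPM in WT and 151.1 and 173.0 CPM in KO. The genotypes overlapped, and the log2 fold change was -0.05 (SE 0.07, 95% interval -0.20 to 0.10, adjusted p = 0.677). It had no stable sign, at 0.033 with library size alone and 0.045 without KO replicate 1. RPS6KB2, which encodes S6K2 (chr11:67428460-67435401), measured 95.3 and 98.7 CPM in WT and 79.9 and 82.3 CPM in KO.

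Both KO libraries of RPS6KB2 were below both WT libraries, at 81.1 ± 1.73 against 97.0 ± 2.40 CPM (SD, n = 2 each). The KO level was 0.835 of WT, a log2 fold change of -0.26 (SE 0.08, 95% interval -0.43 to -0.09, adjusted p = 0.0232). This call did not hold with DESeq2 (-0.26, adjusted p = 0.0841), with limma-voom (-0.21, adjusted p = 0.0652) or with library size alone (-0.18, adjusted p = 0.123). It was also lost without WT replicate 2 (-0.23), without KO replicate 1 (-0.24) and without KO replicate 2 (-0.28). The difference between the S6 kinase genes was not tested.

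The eIF4E-binding proteins are translational repressors that mTORC1 inactivates. EIF4EBP2 (chr10:70404145-70428618) measured 326.7 and 325.8 CPM in WT and 383.3 and 379.9 CPM in KO. Replicates lay close together and the genotypes were clearly apart, at 326 ± 0.597 and 382 ± 2.43 CPM (SD, n = 2 each). EIF4EBP2 rose to 1.17 times its WT level, a log2 fold change of 0.23 (SE 0.06, 95% interval 0.10 to 0.35, adjusted p = 0.00756). It was called higher under all 8 other settings, at 0.21 to 0.31, and without each library in turn, at 0.22 to 0.23 with an adjusted p of at most 0.0465.

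EIF4EBP1 (chr8:38030534-38060365) measured 265.0 and 319.5 CPM in WT and 321.3 and 311.5 CPM in KO. WT replicate 2 lay between the KO libraries and WT replicate 1 below them. The log2 fold change was 0.11 (SE 0.07, 95% interval -0.04 to 0.26, adjusted p = 0.293). The value turned on the WT libraries. Without WT replicate 1 it was -0.014, and with WT replicate 2 left out instead it was 0.26 and called (adjusted p = 0.0128). With library size alone it was 0.20 and called (adjusted p = 0.0354). EIF4EBP3, the third gene of this family, had 0 counts in all 4 libraries, and no level was read from that entry.

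TSC1 and TSC2 encode hamartin and tuberin, of which tuberin carries the GTPase-activating domain. TSC1 (chr9:132891348-132946874) measured 81.2 and 73.3 CPM in WT and 78.4 and 81.7 CPM in KO. The genotypes overlapped, with a log2 fold change of 0.05 (SE 0.09, 95% interval -0.13 to 0.24, adjusted p = 0.706). It was 0.14 with library size alone and -0.022 without WT replicate 2, and was not called in either case. TSC2 (chr16:2047967-2089491) measured 180.4 and 156.0 CPM in WT and 149.7 and 143.7 CPM in KO.

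Both KO libraries of TSC2 were below both WT libraries, but WT replicate 2 was nearer to KO replicate 1 than to WT replicate 1. The log2 fold change was -0.19 (SE 0.07, 95% interval -0.35 to -0.04, adjusted p = 0.0676). Without WT replicate 1 it was -0.088 (adjusted p = 0.519), and with WT replicate 2 left out instead it was -0.30 and called (adjusted p = 0.00663). With library size alone it was -0.11 (adjusted p = 0.307) and the genotypes overlapped, and with limma-voom it was -0.13 (adjusted p = 0.236). TSC2 was called lower at -0.21 when scaling left out chromosomes 16 and 22 (adjusted p = 0.0395) and at -0.19 with no filter on low counts (adjusted p = 0.0458).

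MLST8 and TSC2 lie 115 kb apart near an end of chromosome 16, the chromosome that also carries THUMPD1, and their neighbourhood was lower in KO as a whole. Of 573 tested genes of chromosome 16, 290 were called lower (50.6%) and 5 higher, and 87.4% had a log2 fold change below 0, with a median of -0.44. The medians of the chromosomes of the other 8 members were -0.06 to 0.07. Within 500 kb of TSC2, 27 of 35 other tested genes were called lower, and the median of the 35 was -0.65.

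**Figure D2:**
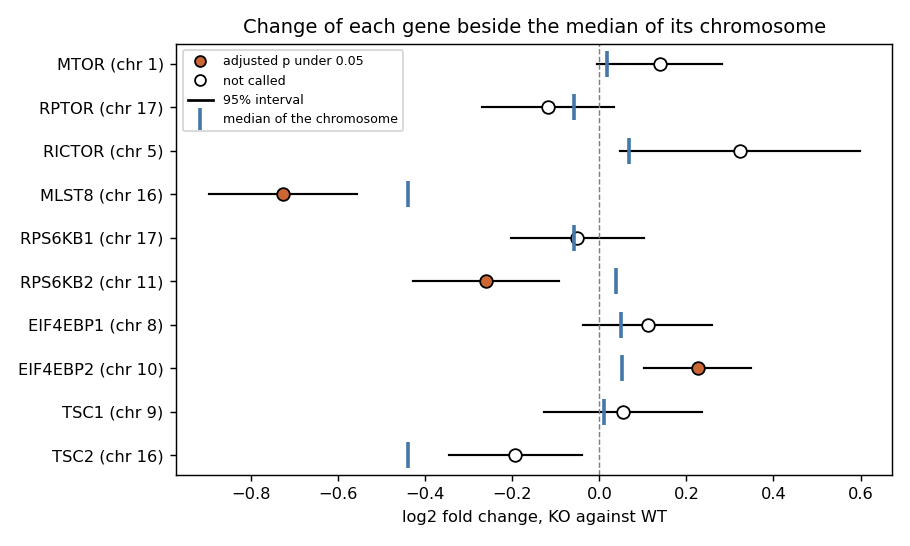
Log2 fold change of KO against WT for each gene (points, with 95% intervals as lines), filled where the adjusted p was under 0.05, beside the median of all tested genes of the same chromosome (blue marks). MLST8 at -0.73 lies left of the chromosome 16 median of -0.44 and TSC2 at -0.19 lies right of it.

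Within this setting the genes took opposite places. MLST8 was among the more reduced genes of its chromosome, with 109 of 573 lower than it, but in its own vicinity it was closer to the middle, with 11 of 36 genes within 500 kb lower than it and a median there of -0.64. TSC2 was less reduced than most genes of the chromosome, with 421 of 573 (73.5%) lower than it. In its vicinity it was the least reduced, as all 35 genes within 500 kb had a lower log2 fold change, from -1.48 to -0.27. When library sizes and scaling factors were taken from chromosome 16 genes alone, MLST8 remained lower (-0.30, SE 0.08, adjusted p = 0.00277) and TSC2 turned higher (0.23, SE 0.08, adjusted p = 0.0084). This scaling called 8339 of the 13128 genes tested and moved the median log2 fold change of all genes to 0.44. A call on it is therefore weak, and TSC2 lay below that median. On the scale of the whole table TSC2 was thus below WT, and on the scale of its chromosome above it.

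**Figure D3:**
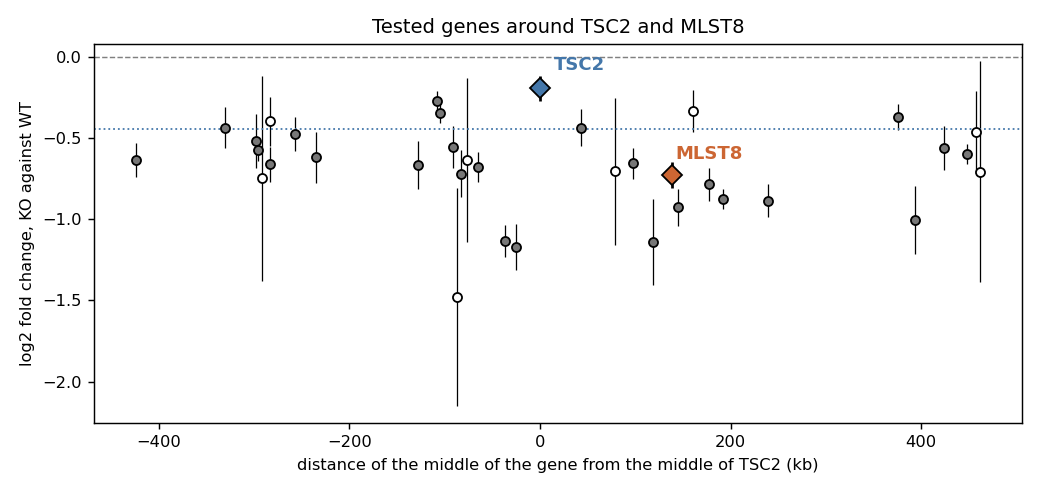
Log2 fold change of KO against WT (vertical axis, bars are SE) of tested genes within 500 kb of TSC2, by distance in kb between the middles of the genes. Filled points passed an adjusted p of 0.05, open points did not, diamonds mark TSC2 (blue, not called) and MLST8 (orange, called), the dashed line is 0 and the dotted line the chromosome 16 median of -0.44, and TSC2 is the highest point.

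The nearest genes on either side showed the same contrast. NTHL1, a DNA glycosylase gene that starts beside TSC2 on the opposite strand (chr16:2039815-2047866), measured 37.3 and 44.9 CPM in WT and 18.9 and 17.7 CPM in KO (log2 fold change -1.17, adjusted p = 9.68e-07). SLC9A3R2, which encodes a scaffold of membrane transporters, was at -1.13 (adjusted p = 6.89e-09), PKD1, the polycystin gene, at -0.44 (adjusted p = 0.00676), and RAB26 at -0.70 on few counts (adjusted p = 0.292). PKD1 shares 784 bases with TSC2 on the opposite strand and had 403 to 732 counts per library. Around MLST8, TRAF7 was at -0.65, CASKIN1 at -1.14, PGP, a phosphoglycolate phosphatase gene, at -0.93 and E4F1 at -0.33, the last with an adjusted p of 0.0737.

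Of the other members, MLST8 overlaps BRICD5 (201 bases, 1 to 8 counts per library) and RICTOR overlaps OSMR (7677 bases, 10 to 33 counts). TSC1 overlaps GFI1B (at most 2 counts) and MTOR contains ANGPTL7 (0 counts). These overlapping genes of the count table all lie on the opposite strand. Annotated genes absent from the count table also overlap members. Among them, RPS6KB2-AS1 shares 4033 bases with RPS6KB2 on the opposite strand. Unnamed protein-coding genes share 9667 bases with RPS6KB1 and 60 bases with RPTOR on the same strand. It is not stated whether counting used the strand, so reads in these shared bases cannot be assigned with certainty. Reads of EIF4EBP1 and EIF4EBP2 may be partly those of processed pseudogenes, and this was not examined.

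The TSC2 promoter is shown because TSC2 kept the highest log2 fold change in its vicinity, and the motifs searched in it were chosen after that was seen. They were TGATGNAA, a C/EBP-ATF composite element, TGACGTCA, the cAMP response element, and CACGTG, the E-box bound by MYC and TFEB family factors, each on both strands of RefSeq promoters (GRCh38.p14, 250 bases before to 50 after the start). Over 27305 promoters, 3.67% held TGATGNAA, 1.98% TGACGTCA and 7.43% CACGTG. Of the 8 members matched, which leaves out MLST8 and EIF4EBP1, TSC2 was the only match for TGATGNAA and for CACGTG, and none held TGACGTCA. In TSC2 the matches share 2 bases and lie 114 to 103 bases before the start, here in capitals (chr16:2047862-2047891, plus strand).
TSC2 promoter: cggccccgtCACGTGATGCAAggatcgccg

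A match of letters is a description and not evidence of binding. TSC2 has 2 starts in the promoter collection, and the first listed was used. The stretch shown also spans the annotated start of NTHL1 at position 2047866, which was lower in KO.

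Per kilobase of canonical transcript, EIF4EBP1 was by far the most abundant member in WT, at 353 ± 46.6 CPM per kb (SD, n = 2). MLST8 followed at 70.2, RPS6KB2 at 56.0, EIF4EBP2 at 43.6, RPS6KB1 at 30.9, TSC2 at 26.2, RPTOR at 19.3, MTOR at 15.8, TSC1 at 8.99 and RICTOR at 2.64 CPM per kb. No neighbours in this order overlapped between the WT libraries. In KO the order from the second place on was EIF4EBP2 at 50.9, RPS6KB2 at 46.8 and MLST8 at 42.5 CPM per kb, followed by the others in the same order as in WT. The order depends on the length used: over all annotated exons, EIF4EBP2 took the second place and MLST8 the third in WT.

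Ratios of partner genes within a library do not depend on its scaling, and 6 were computed as descriptions with no test. The ratio of MLST8 to MTOR was 4.24 and 4.67 in WT and 2.48 and 2.42 in KO, so that the KO mean was 0.550 of the WT mean. The ratio of the scaffolds RPTOR and RICTOR was 6.97 and 7.64 in WT and 5.24 and 5.55 in KO, 0.738 of WT. Both ratios lay below the WT range.

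The ratio of TSC1 to TSC2 was 0.336 and 0.351 in WT and 0.391 and 0.424 in KO. That of RPS6KB1 to RPS6KB2 was 0.581 and 0.525 in WT and 0.604 and 0.671 in KO. KO was above WT in both, by 1.19 and 1.15 times. The sum of EIF4EBP1 and EIF4EBP2 relative to EIF4E, the cap-binding protein they hold, was 13.9 and 16.9 in WT and 18.2 and 18.3 in KO, 1.19 times higher. Most of this sum was EIF4EBP1, at 353 CPM per kb in WT beside 43.6 for EIF4EBP2. EIF4EBP1 was not called, and its log2 fold change was -0.014 without WT replicate 1. EIF4E, the denominator, was lower in KO but not called (log2 fold change -0.12, adjusted p = 0.411), and this also raised the ratio. EIF4EBP1 to EIF4EBP2 overlapped between genotypes, at 7.35 and 8.88 in WT and 7.59 and 7.43 in KO.

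The wider pathway was read from 7 lists holding 85 genes, of which 77 were tested. The test called 8 higher and 16 lower, 31.2% against 20.9% of all genes, and the median log2 fold change was -0.02. Library size alone also gave 24 calls, 12 higher and 12 lower (3239 of all 13128 genes, 2081 higher and 1158 lower). With limma-voom there were 24, 11 higher and 13 lower (2628 of all genes, 1279 higher and 1349 lower). DESeq2 gave 16, 6 higher and 10 lower (1764 of all genes, 645 higher and 1119 lower). It called 2 genes of GATOR, KICSTOR and sensors and 2 other substrates where edgeR called 4 of each. In how many of these calls the settings share genes was not counted. Of the 8 tested genes on chromosomes 16 and 22, where 477 of all 884 tested genes were called lower, 7 were called lower. Among the other 69, 8 were called higher (11.6%) and 9 lower (13.0%), beside 9.37% and 9.12% of the 12244 tested genes placed elsewhere or not placed. The counts per list that follow stand against 8.79% higher and 12.1% lower over all genes tested, and the lists are too short for their shares to be read closely.

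Among upstream growth factor, energy and stress kinases and inhibitors, 6 of 19 tested genes were called higher (8.79% of all genes were). In the same list 2 were called lower (12.1% of all genes were), and the median was 0.08. DDIT4, also called REDD1, a stress-induced inhibitor of mTORC1 that acts through TSC, measured 67.2 and 62.1 CPM in WT and 106.6 and 103.3 CPM in KO (log2 fold change 0.70, SE 0.09, adjusted p = 1.25e-06). SESN3, a sestrin that restrains mTORC1 through GATOR2, measured 53.5 and 57.1 CPM in WT and 78.9 CPM in both KO libraries (0.51, SE 0.09, adjusted p = 0.000241). In both genes the KO libraries were above the WT libraries.

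Others called higher in this list, named after their values were seen, included the leucine sensor SESN2 at 0.43 (adjusted p = 0.00235) and the AMPK catalytic subunit PRKAA1 at 0.38 (adjusted p = 0.0182). PDPK1, a kinase that phosphorylates S6 kinases, lies on chromosome 16 and was lower, at 57.3 and 43.95 CPM in WT and 38.6 and 35.5 CPM in KO (-0.44, adjusted p = 0.0126). PIK3R2, a regulatory subunit of PI3-kinase, was at -0.22 (adjusted p = 0.0356). DDIT4L, a relative of DDIT4, was not tested, with 6 to 9 counts per library.

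Of Rheb and its regulators, 0 of 3 tested genes were called by edgeR, DESeq2 or limma-voom and 0 had an unadjusted p under 0.05. RHEB itself, named after its value was seen, was at 0.01 (adjusted p = 0.903). Among accessory subunits and assembly factors, 1 of 7 was called, with a median of -0.03. That was TELO2, an assembly factor of mTOR and related kinases on chromosome 16, at 39.6 and 43.95 CPM in WT and 28.2 and 24.5 CPM in KO (-0.67, SE 0.13, adjusted p = 0.000475).

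In the lists of Rag GTPase and Ragulator genes and of GATOR, KICSTOR and sensors, all calls were lower. The sestrins SESN2 and SESN3, which were called higher, stood in the list of upstream kinases and inhibitors. Of 11 Rag GTPase and Ragulator genes, 2 were called: LAMTOR4 measured 106.0 and 99.5 CPM in WT and 74.2 and 78.1 CPM in KO (-0.43, adjusted p = 0.000473), and LAMTOR5 was at -0.37 (adjusted p = 0.00134). Both are subunits of the Ragulator scaffold that anchors Rag GTPases to the lysosome. LAMTOR1, another subunit, had 0 counts in all 4 libraries although it is widely expressed, and no level can be read from that entry.

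Of 13 genes of GATOR, KICSTOR and sensors, 4 were called lower, with a median of -0.23. NPRL3, a GATOR1 subunit that inhibits the Rag GTPases, was at -0.62 (adjusted p = 0.000234) and WDR24, a GATOR2 subunit that opposes GATOR1, at -0.57 (adjusted p = 0.014). Both lie on chromosome 16, as does WDR59, named after its value was seen (-0.31, adjusted p = 0.0247). SEH1L, shared by GATOR2 and the nuclear pore, lies elsewhere and measured 67.0 and 56.3 CPM in WT and 44.5 and 47.7 CPM in KO (-0.41, adjusted p = 0.00676).

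Downstream of the S6 kinases and eIF4E-binding proteins, 1 of 13 translation effectors was called higher and 4 lower, with a median of -0.01. EIF4G1, the scaffold that eIF4E-binding proteins displace from eIF4E, measured 574.7 and 638.6 CPM in WT and 455.4 and 473.4 CPM in KO (-0.39, SE 0.06, adjusted p = 6.45e-05). EIF4A2, an eIF4A helicase gene, measured 187.3 and 154.2 CPM in WT and 216.5 and 226.5 CPM in KO (0.38, SE 0.08, adjusted p = 0.000664). In both genes the genotypes did not overlap.

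EEF2K, the elongation factor kinase that S6 kinase inhibits, was at -0.48 (adjusted p = 0.000268) and lies on chromosome 16. POLDIP3, also called SKAR, an S6K1 target in mRNA processing, was at -0.46 (adjusted p = 9.52e-05) and lies on chromosome 22. EIF4E2, a second cap-binding protein named after its value was seen, was at -0.26 (adjusted p = 0.0422).

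Among 11 other direct mTOR substrates, 1 was called higher and 3 lower, with a median of -0.13. ULK2, a kinase that starts autophagy, measured 11.7 and 14.9 CPM in WT and 4.41 and 4.13 CPM in KO (-1.65, SE 0.26, adjusted p = 4.33e-05). The lysosomal transcription factor genes TFEB and TFE3 were lower, TFEB at 9.26 and 7.55 CPM in WT and 4.66 and 3.76 CPM in KO (-0.98, SE 0.30, adjusted p = 0.0209) and TFE3 at -0.34 (adjusted p = 0.0309). GRB10, an mTORC1 substrate that restrains insulin signaling, was higher at 0.28 (adjusted p = 0.00563). The listed genes PRR5, FNIP1, SEC13, EIF4A1 and CASTOR1 were not analysed here.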

How the data were processed

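RNA-seq counts of 4 libraries (WT replicates 1 and 2, KO replicates 1 and 2) were analysed. The authors deposited whole-number counts per gene symbol, not normalized, and 0 entries lacked a name. The labels name hg19 and a Zymo RiboFree kit, while the paper's methods give STAR and RSEM on GRCh38 with GENCODE 46, an Illumina kit and 3 samples per genotype. The sources do not say which of these produced the deposited counts. A table of the authors' own comparison of KO with WT (fold changes, errors and p-values) was not used.

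The quasi-likelihood test of edgeR 4.0.16 in R 4.3.3 (glmQLFTest after glmQLFit, TMM factors, genotype as the only term) was run on the 13128 genes that reached 1 CPM in 2 or more libraries. P-values were adjusted by Benjamini and Hochberg's method over all of them, and 0.05 was the threshold. CPM use TMM-scaled library sizes. The common biological coefficient of variation was 6.75%. The test was checked on simulated data. Alternatives were library size alone, upper quartile factors, TMM without chromosomes 16 and 22, DESeq2 1.42.0, limma 3.58.1 voom with quantile normalization, other filters, a threshold of 0.01, the replicate number as a block and leaving out each library.

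Genes were placed on GRCh38 by GENCODE 44, 12167 tested genes by symbol and 837 by synonym, and 124 were not placed. Lengths and codons are those of the canonical transcript. Nearby genes are within 500 kb by the middle of the gene. The genes named are the 10 members, THUMPD1, up to 3 called rises and 3 called falls per list, the 2 nearest tested genes on each side of TSC2 and MLST8, and overlapping genes; some genes that meet this rule are not reported here. The members and lists were chosen with earlier results of these data known. Python 3.11.15, pandas 2.3.3, NumPy 2.4.6 and matplotlib 3.10.9 were used. Floors cover counting error only.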

Additional observations from a re-analysis of the deposited data

How the results depend on the processing

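MLST8, EIF4EBP2 and THUMPD1 kept direction and call under the 8 whole-table alternatives and without each library (THUMPD1 -2.96 to -2.85 over the alternatives). With library size alone, MTOR (0.22), RICTOR (0.41) and EIF4EBP1 (0.20) became called, RPS6KB2 (-0.18) was lost and RPS6KB1 turned to 0.033. On that scale 5 members and 3239 of all genes were called, and the median of all genes was 0.09 in place of 0.01. RPS6KB2 was also lost with DESeq2 (-0.26) and limma-voom (-0.21), and RPS6KB1 was 0.0067 with limma-voom. TSC2 became called with TMM factors without chromosomes 16 and 22 (-0.21) and with no filter (-0.19), and was 0.23 relative to chromosome 16. DESeq2 called 1764 of all genes against 2748, and a threshold of 0.01 left 1594 of all genes and 15 of the 24 other pathway genes. The causes were not tested.

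The replicate numbers do not pair the libraries (correlation of deviations between genotypes 0.0257). With the replicate block, 3222 genes were called and TSC2 was called at -0.19 (adjusted p = 0.0228).

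Leaving out each library in turn gave RPTOR -0.17 to -0.056, RPS6KB1 -0.15 to 0.045 (without KO replicate 1), RPS6KB2 -0.28 to -0.23, EIF4EBP1 -0.014 to 0.26, TSC1 -0.022 (without WT replicate 2) to 0.13, TSC2 -0.30 to -0.088, 1620 (without KO replicate 1) to 2591 calls over all genes, 2 to 4 members and 19 to 22 other pathway genes. The lone library was assumed to vary like the other genotype, and no direction was read from values rounding to 0.00. RICTOR had the fewest counts of the members, 194 to 371 per library, and the largest SE, 0.13.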
